A study of Caenorhabditis elegans with 6 samples.

Results

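The glutathione S-transferase genes of Caenorhabditis elegans were taken as every gene whose symbol in the array's annotation begins with gst- or gsto-, read from probe sets that list 1 gene only. That gave 43 of the 17118 genes on the array, 40 named gst- and 3 named gsto-. A gene is represented by its brightest probe set, and 42 of the 43 have only 1. A RefSeq gene table holds 47 such symbols, and gst-25, gst-34, gst-35 and gst-37 were not analysed here. One further probe set lists both gst-10 and F56A4.3 and was kept out.

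Transcript signal was measured on 6 Affymetrix arrays in whole worms of line CB3474, genotype ben-1(e1880), and every array carries this mutation, so no sample has an intact ben-1. The gene encodes a beta-tubulin whose loss makes worms resistant to benzimidazoles such as albendazole. About 10000 synchronised worms per condition, kept in shaken liquid medium at 20 °C, were exposed for 4 h once they had reached 70 h of age counted from the L1 larva. The 3 albendazole samples (ABZ) received 300 µg/ml of the drug in 1.5% dimethyl sulfoxide by volume, and the 3 control samples received 1.5% of this solvent alone (DMSO). Each sample is called a biological replicate, numbered 1 to 3 in its group.

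Glutathione S-transferases couple the tripeptide glutathione to reactive foreign or endogenous compounds, a step of drug metabolism that makes them easier to export. The cytosolic enzymes work as dimers and fall into classes such as pi, sigma, zeta and omega, to the last of which the gsto genes belong. In the worm many of them are expressed in the intestine, and several, gst-4 above all, are used as reporters of the transcription factor SKN-1, the worm relative of mammalian Nrf proteins.

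DMSO replicate 1 stood apart on the array as a whole, and this touches every value below. Its SD across probe sets was 1.73 on the log2 scale, against 1.98 to 2.017 on the other 5 arrays. It held the highest or the lowest of the 6 values in 27 of the 43 glutathione S-transferase genes (62.8%) and in 83.6% of all genes. Of the 26 members at or above the median gene signal of 7.64, DMSO replicate 1 lay below the mean of the other arrays in 20, with a median difference of -0.23. Of the 17 dimmer members it lay above that mean in 10, with a median difference of 0.09. The main values are given with and without this array, and the plot of this array against the others shows the members it separates most.

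**Figure D1:**
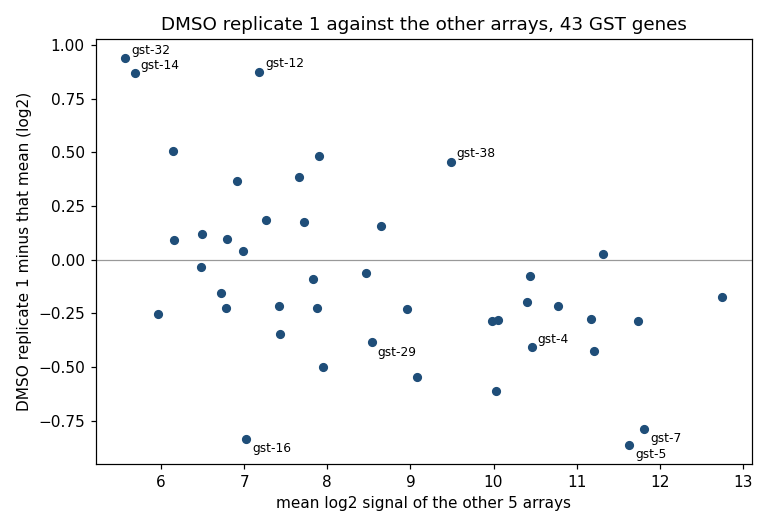
Each point is 1 of the 43 genes, with the mean log2 signal of the other 5 arrays on the x axis and DMSO replicate 1 minus that mean (log2) on the y axis. The genes gst-32, gst-14 and gst-12, all below the median gene signal, lie highest, and gst-5, gst-16 and gst-7 lie lowest. For gst-5 the mean includes the 3 albendazole arrays.

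In the comparison of albendazole with DMSO, gst-5 differed most, with a signal 3.43-fold higher with the drug. The signal of gst-21 was 2.26-fold higher on average, through 1 array. Apart from gst-5, the members with an unadjusted p under 0.05 were gst-6, gst-42, gsto-1, gst-20 and gst-22, at 1.30- to 1.42-fold higher. The most negative difference belonged to gst-4, at -0.44 on the log2 scale. Most of the family differed little: 39 of the 43 genes lay within 0.5 of 0 on the log2 scale, as did 93.9% of all genes. The median of the 43 differences was 0.02, and it was also 0.02 over all genes. No member passed an adjusted p under 0.05 in limma's test over the 22548 probe sets, of which 0% passed in either direction, and the smallest adjusted p was 0.651.

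At an unadjusted p under 0.05 the count was 6 of 43 members higher and 0 lower. Over all genes that rule called 1.45% as higher and 0.368% as lower. The count was 3, with 0 lower, without ABZ replicate 1 or without DMSO replicate 3, beside 0.462% and 2.01% of all genes called higher. Groups that did not overlap, with every albendazole value above every DMSO value, were seen in 6 members, beside 7.17% of all genes; in 2 members they lay below, beside 10.2%. With 1 array left out, which makes separation easier for any gene, 9 to 15 members had groups apart, or 20.9% to 34.9% of them, beside 22.8% to 33.7% of all genes. Without DMSO replicate 1 there were 9 above and 6 below, beside 9.6% and 15.6% of all genes, and without ABZ replicate 2 there were 15 in all, beside 24.6%. Without DMSO replicate 1, 6 members were higher and 4 lower at an unadjusted p under 0.05, beside 2.73% and 2.84% of all genes. The 4 lower ones were gst-4, gst-16, gst-24 and gst-29.

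The balance of higher and lower members moved with the scaling of the arrays. Under quantile normalization 2 members were higher and 2 lower at an unadjusted p under 0.05, beside 1.19% and 0.625% of all genes, and 2 had groups apart upwards and 3 downwards, beside 5.64% and 7.69%. Under cyclic loess normalization 2 were higher and 3 lower by p, beside 1.57% and 0.713%, and 4 and 4 had groups apart, beside 6.37% and 7.31%. The highest member was gst-5 under both. In whole worms a lower share of the cells that express a gene and less RNA per cell cannot be told apart. With 3 arrays against 3, an exact permutation test of a single gene cannot give a two-sided p below 0.1.

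**Figure D2:**
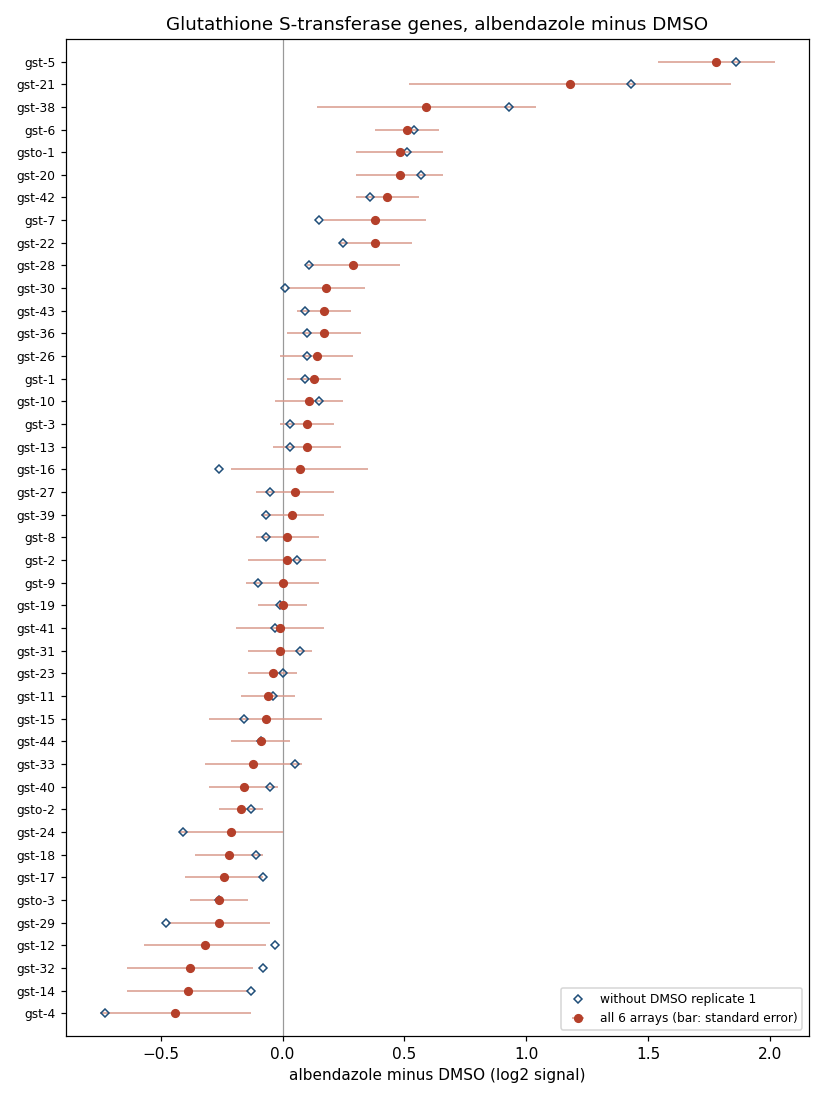
Albendazole minus DMSO in log2 signal (x axis) for each of the 43 genes (y axis), sorted by the value from all 6 arrays (filled, with its standard error); open diamonds are the values without DMSO replicate 1. Only gst-5 and gst-21 lie above 1, and the bar of gst-21 is the widest of all.

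The gene with the largest difference, gst-5 (NCBI gene 187537, chromosome II), encodes an enzyme known to conjugate the lipid peroxidation product 4-hydroxynonenal. Its log2 signal was 12.18, 12.81 and 12.14 in ABZ replicates 1, 2 and 3. In DMSO replicates 1, 2 and 3 it was 10.77, 10.76 and 10.26. The groups did not overlap, and the lowest albendazole value stood well above the highest DMSO value. The means were 12.38 ± 0.37 and 10.60 ± 0.29 (SD, n = 3 each), and the log2 difference was 1.78 (SE 0.24, 95% interval 1.2 to 2.36; unadjusted p 0.000263, limma's adjusted p 0.651). DMSO replicate 1 was not an outlying control here, being almost equal to DMSO replicate 2, and without it the difference was 1.86 (SE 0.25, limma's adjusted p 0.679).

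The stress reporter gene gst-4 (gene 177886, chromosome IV) went the other way, with overlapping groups. Its signal was 10.10, 10.59 and 9.81 in ABZ replicates 1, 2 and 3 and 10.05, 10.94 and 10.85 in DMSO replicates 1, 2 and 3. DMSO replicate 1 lay among the albendazole values, while the other controls lay above all of them. The log2 difference was -0.44 (SE 0.31, 95% interval -1.19 to 0.30; unadjusted p 0.198), and the interval holds 0. Without DMSO replicate 1 it was -0.73 (SE 0.22, unadjusted p 0.0175, limma's adjusted p 0.775), and under quantile normalization of all 6 arrays it was -0.67 (unadjusted p 0.0177).

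In gst-29 (gene 190225, chromosome II) DMSO replicates 2 and 3 again lay above all 3 albendazole arrays. It is a gene of a row of neighbouring glutathione S-transferase genes. Its signal was 8.27, 8.33 and 8.42 in ABZ replicates 1, 2 and 3, and 8.15, 8.82 and 8.83 in DMSO replicates 1, 2 and 3. DMSO replicate 1 held the lowest of the 6 values. The log2 difference was -0.26 (SE 0.21, 95% interval -0.76 to 0.24; unadjusted p 0.252). Without DMSO replicate 1 it was -0.48 (SE 0.07, unadjusted p 0.000508, limma's adjusted p 0.72).

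Weighting the arrays by their agreement with the fit brought 2 members past the threshold. With array weights gst-5 had a log2 difference of 1.72 (adjusted p 0.0247) and gst-29 one of -0.47 (adjusted p 0.0433), 1 member higher and 1 lower. Under the same weights 0.111% of all genes were called higher and 0.0117% lower. The weight was 0.0428 for DMSO replicate 1 and 10.4 for DMSO replicate 2, so the control level rested mostly on 1 array. With gene-by-gene weights, where DMSO replicate 2 had a weight of 3.83, the adjusted p was 0.0731 for gst-5, 0.148 for gst-29 and 0.48 for gst-4.

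**Figure D3:**
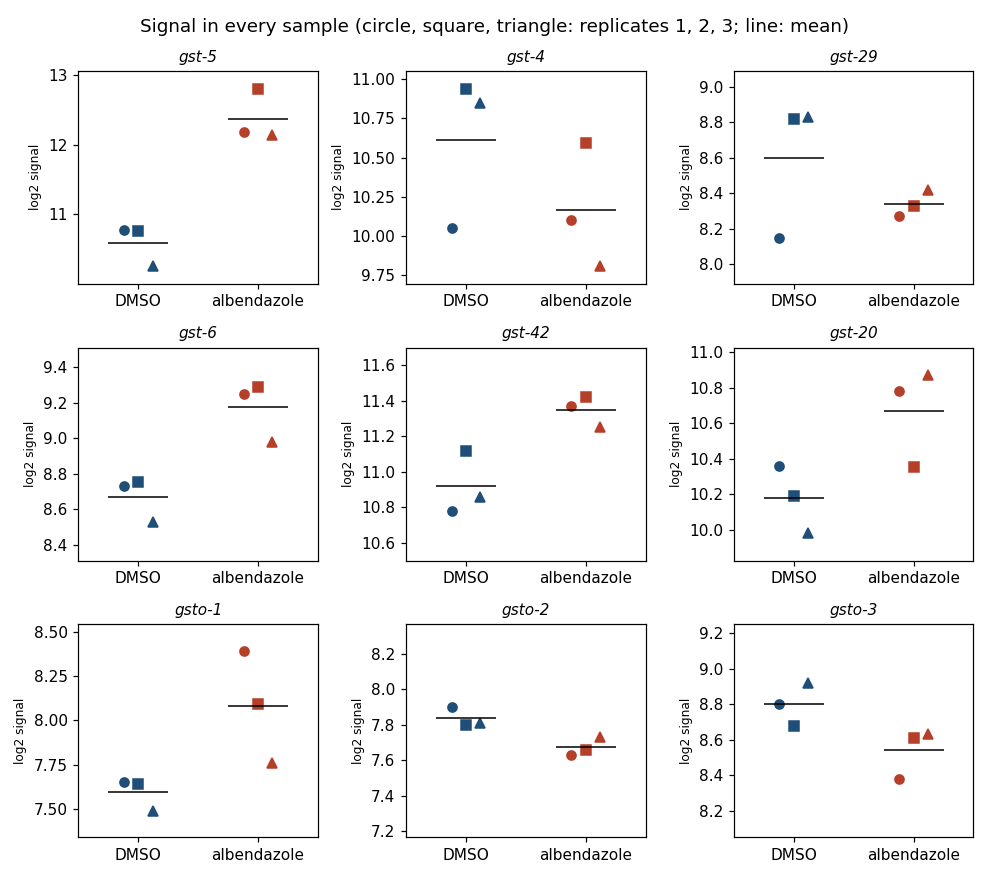
Log2 signal (y axis) in every sample of gst-5, gst-4, gst-29 and the other members described by sample, with DMSO in blue and albendazole in red; marker shapes are replicates 1 to 3, lines are group means, and each panel has its own scale. The groups are apart in gst-5, gst-6, gst-42, gsto-1, gsto-2 and gsto-3, and they overlap in gst-4, gst-29 and gst-20.

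Besides gst-5, the members with the smallest p values on the higher side were gst-6, gst-42, gsto-1 and gst-20. The signal of gst-6 was 9.25, 9.29 and 8.98 in ABZ replicates 1 to 3, and 8.73, 8.75 and 8.53 in DMSO replicates 1 to 3. Its groups did not overlap; the log2 difference was 0.51 (SE 0.13, unadjusted p 0.00776) and 0.54 without DMSO replicate 1. Under quantile normalization it was 0.31 (unadjusted p 0.131).

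The zeta-class gene gst-42 encodes maleylacetoacetate isomerase, an enzyme of tyrosine breakdown. It stood at 11.37, 11.42 and 11.25 with albendazole and at 10.78, 11.12 and 10.86 with DMSO, in the order of replicates 1 to 3. The albendazole values were close together and all above the controls, with a log2 difference of 0.43 (SE 0.13, unadjusted p 0.0144). This became 0.36 without DMSO replicate 1 and 0.21 under quantile normalization (unadjusted p 0.184).

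The omega-class gene gsto-1 is expressed in the intestine under control of the GATA factor ELT-2. Its signal was 8.39, 8.09 and 7.76 in ABZ replicates 1 to 3 and 7.65, 7.64 and 7.49 in DMSO replicates 1 to 3. The groups were apart by a small gap, since ABZ replicate 3 came close to the controls. The log2 difference was 0.48 (SE 0.18, unadjusted p 0.0321), 0.51 without DMSO replicate 1 and 0.46 under quantile normalization.

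The signal of gst-20 was 10.78, 10.35 and 10.87 with albendazole and 10.36, 10.19 and 9.98 with DMSO, in the order of replicates. ABZ replicate 2 lay just under DMSO replicate 1, so the groups overlapped. The log2 difference was 0.48 (SE 0.18, unadjusted p 0.0348), and it was 0.24 under cyclic loess normalization. In gst-22, the sixth member at an unadjusted p under 0.05, the mean was 9.18 ± 0.04 under the drug and 8.80 ± 0.26 in the controls (SD, n = 3 each), with groups apart and an unadjusted p of 0.0457. Its difference of 0.38 became 0.25 without DMSO replicate 1. The bright gene gst-7 had groups apart too, at 11.87 ± 0.12 against 11.50 ± 0.40, and its difference of 0.38 became 0.15 without that array.

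On the lower side the smallest p values belonged to the other gsto genes. The signal of gsto-3 was 8.38, 8.61 and 8.63 with albendazole and 8.80, 8.68 and 8.92 with DMSO, in the order of replicates. That of gsto-2 was 7.63, 7.66 and 7.73 with albendazole and 7.90, 7.80 and 7.81 with DMSO. Both genes had groups that did not overlap, while their differences were small: -0.26 for gsto-3 (SE 0.12, unadjusted p 0.0756) and -0.17 for gsto-2 (SE 0.09, unadjusted p 0.125). Under quantile normalization that of gsto-3 was -0.43 (unadjusted p 0.0429). The differences were -0.26 and -0.13 without DMSO replicate 1. The 3 gsto genes thus lay on both sides of 0, with gsto-1 positive and gsto-2 and gsto-3 negative, and these signs were kept in all 17 alternative settings.

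The next smallest p values on that side were those of gst-14, gst-17 and gst-18, which are dim or moderate on the array. In gst-14 the signal was 5.79, 5.53 and 5.57 with albendazole and 6.55, 5.88 and 5.64 with DMSO. In gst-17 it was 6.09, 6.04 and 6.21 against 6.65, 6.19 and 6.20, and in gst-18 it was 7.46, 7.67 and 7.70 against 8.04, 7.82 and 7.62. DMSO replicate 1 held the highest value of all 3 genes. Their log2 differences were -0.39, -0.24 and -0.22, and without that array -0.13, -0.08 and -0.11.

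A pair of members varied strongly within a group. The signal of gst-21 was 9.92, 7.85 and 7.44 in ABZ replicates 1 to 3 and 7.74, 6.87 and 7.07 in DMSO replicates 1 to 3, so ABZ replicate 1 alone was high. Its log2 difference of 1.18 (SE 0.66, unadjusted p 0.125) was 1.43 without DMSO replicate 1 and ranged from 0.42 to 1.66 over the alternative settings. The signal of gst-38, whose expression is known to depend on SKN-1, was 10.24, 9.01 and 10.32 in the albendazole arrays and 9.94, 8.91 and 8.94 in the DMSO arrays. It was high in ABZ replicates 1 and 3 and DMSO replicate 1 and low in the other arrays. Its difference of 0.59 (SE 0.45, unadjusted p 0.232) became 0.93 (unadjusted p 0.0601) without DMSO replicate 1. These genes had SDs of 1.33 and 0.73 within the albendazole group, where the median SD was 0.13 over the members and 0.09 over all genes.

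Of the 5 brightest members, gst-5 and gst-7 had groups apart, with differences of 1.78 and 0.38. That of gst-7 became 0.15 without DMSO replicate 1. In gst-1, gst-27 and gst-10 the groups overlapped, with differences of 0.13, 0.05 and 0.11. Signals of different probe sets depend on their probes, so these are levels of each probe set and not an order of transcript amounts. The brightest was gst-1, at 12.79 ± 0.13 under the drug and 12.66 ± 0.07 in the controls (SD, n = 3 each). The differences were 0.09 for gst-1, -0.05 for gst-27 and 0.15 for gst-10 without DMSO replicate 1. In signal gst-1 was followed by gst-27 at 11.72 ± 0.17 against 11.67 ± 0.22, then gst-7 and gst-5, and by gst-10, a further enzyme for 4-hydroxynonenal, at 11.37 ± 0.14 against 11.26 ± 0.17. The probe set that gst-10 shares with F56A4.3 gave a log2 difference of 0.21, beside 0.11 for the gene's own. In all, 7 members lay above the 90th percentile of gene signals, 17 below the 50th and 6 below the 25th.

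The dimmest member was gst-32, with 5.53, 5.53 and 5.56 with albendazole and 6.51, 5.54 and 5.70 with DMSO. Its DMSO mean rested on replicate 1, and the difference of -0.38 became -0.08 without it. The other dim members were gst-14, gst-9 at 5.92 ± 0.15 against 5.92 ± 0.20, gst-2 at 6.18 ± 0.27 against 6.17 ± 0.07, and gst-17. Without detection calls in the table, it is unknown whether these dim probe sets measured more than background. In gst-12 DMSO replicate 1 was likewise the only array that stood out, at 8.05 where the other 5 reached from 7.12 to 7.27, and its difference of -0.32 became -0.03. In gst-16 that array was low, at 6.19 against 6.87 to 7.22 on the others, and the difference of 0.07 became -0.26 (unadjusted p 0.00999).

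The remaining members had small differences. On the positive side were gst-28 at 0.29, gst-30 at 0.18, gst-36 and gst-43 at 0.17, gst-26 at 0.14, gst-3 and gst-13 at 0.10, gst-39 at 0.04, gst-8 at 0.02 and gst-19 at 0.00. On the negative side were gst-24 at -0.21, gst-40 at -0.16, gst-33 at -0.12, gst-44 at -0.09, gst-15 at -0.07, gst-11 at -0.06, gst-23 at -0.04 and gst-31 and gst-41 at -0.01. The smallest unadjusted p among them was 0.172, for gst-28. Without DMSO replicate 1 the difference of gst-24 was -0.41 (unadjusted p 0.0246). That of gst-28 was 0.11, of gst-30 0.01, of gst-39 -0.07 and of gst-33 0.05, and the others of this group lay between -0.16 and 0.10. The second, dimmer probe set of gst-40 gave -0.01 beside -0.16.

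Many members lie side by side in the genome. Of the 43 genes, 23 are on chromosome II, 8 on V, 4 each on III and IV, 3 on X and 1 on I. Counting members with at most 4 other protein-coding genes between them in the WBcel235 RefSeq order as neighbours, 23 of the 43 form 4 clusters, 3 on chromosome II and 1 on IV. The cluster from gst-20 to gst-18 is 9 members in a row. It had a median difference of -0.21, with 3 of 9 positive, and DMSO replicate 1 held the highest value of 4 of them and the lowest of 2; without this array the median was -0.11 and 1 of 9 was positive. The exception was gst-20, at 0.48 and 0.57.

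The cluster of gst-6, gst-7, gst-8 and gst-9 had a median of 0.20 and 4 of 4 positive, against 0.04 and 2 of 4 without DMSO replicate 1. The cluster from gst-26 to gst-32, which holds gst-29, had medians of 0.04 and -0.05, and gst-29 had the most negative value in it without that array. The cluster of gst-3, gst-2 and gst-4 had 0.02 and 0.03, where gst-4 alone was far from 0. The gene with the largest difference, gst-5, is in no cluster. The members of a cluster have related sequences. The names of 7 of the 43 probe sets end in _s_at, Affymetrix's mark for probes shared by several transcripts. These are the probe sets of gst-9, gst-16, gst-19, gst-20, gst-27, gst-33 and gst-41. Whether each probe set reads only its gene was not tested.

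**Figure D4:**
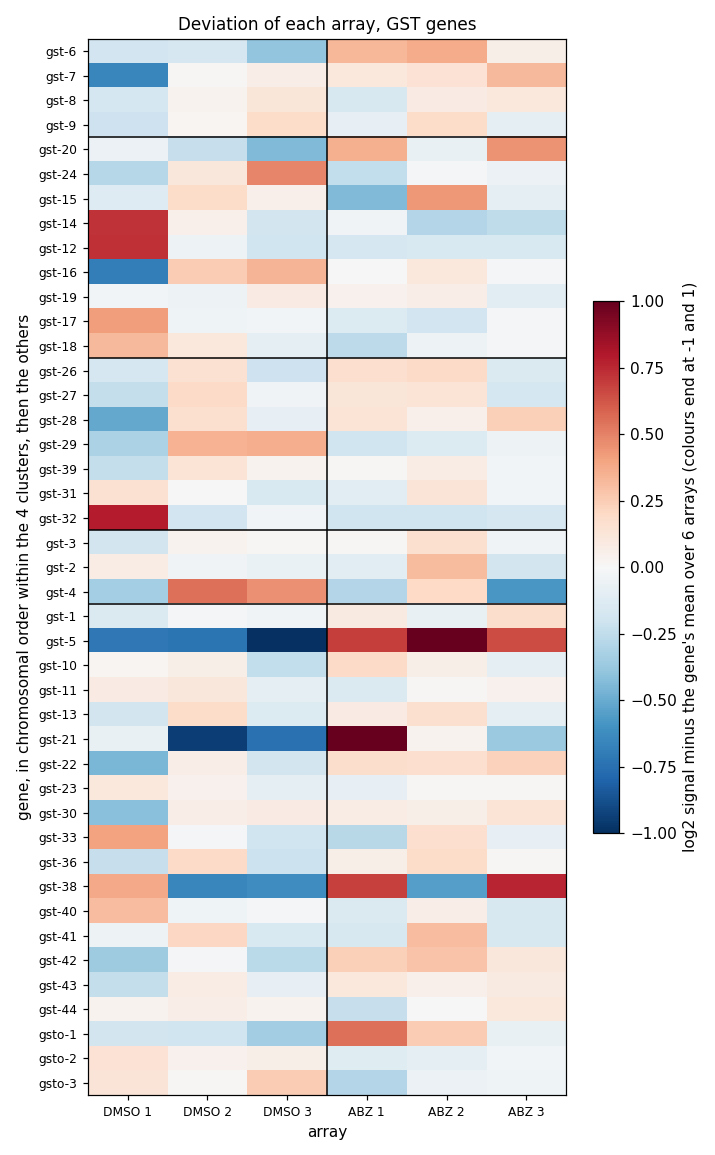
Log2 signal of each of the 43 genes (rows) on each array (columns) minus the gene's mean over the 6 arrays, red above and blue below, with lines between the 4 clusters, the other genes and the groups; colours end at -1 and 1. The row of gst-5 splits by treatment, that of gst-21 by ABZ replicate 1, and gst-12, gst-14 and gst-32 stand out only on DMSO replicate 1.

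Genes around the enzymes were read from 4 lists fixed by name. Of their 42 measured members 0 passed, as did 0% of all 22548 probe sets. In glutathione supply and use, 14 of 20 genes were positive with a median of 0.15, against 6 of 20 and -0.03 without DMSO replicate 1. Of all 17118 genes, 8943 were positive, and 7084 without that array. The median over all genes at or above the median signal was 0.18, and 0 without that array. The synthesis enzyme gene gcs-1, rate-limiting and a classical SKN-1 target, had a difference of 0.25 (unadjusted p 0.344), and -0.03 without that array. The glutathione peroxidase gene gpx-3 had a difference of -0.21 (unadjusted p 0.12), and of -0.22 without that array. Its groups did not overlap, though ABZ replicate 3 and DMSO replicate 3 both round to 7.90. Glutathione synthetase gss-1 had 0.36, the glyoxalase gene glod-4 had 0.55 and the glutaredoxin gene glrx-5 had 0.34, which became 0.08, 0.08 and 0.06.

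Of the 8 mrp genes, which encode transporters of the family that carries glutathione conjugates out of cells, 4 were positive with a median of 0.02, against 3 and -0.06 without DMSO replicate 1. The heme exporter gene mrp-5 had 0.50 and, without that array, 0.20, mrp-8 had -0.29 and -0.11, and mrp-2 had -0.11 and -0.01. For mrp-6 the values were -0.48 and -0.12. Its groups did not overlap, though ABZ replicate 3 and DMSO replicate 2 both round to 7.18. Among the 9 regulators the median was 0.22, beside 0.18 over all genes at or above the median signal. These medians were 0.06 and 0 without DMSO replicate 1. The difference was 0.47 for skn-1 (-0.09 without it) and 0.26 for wdr-23 (-0.01), whose product targets SKN-1 for degradation. It was 0.60 for the p38 kinase gene pmk-1 (0.31), 0.59 for the GATA factor gene elt-3 (0.28), 0.22 for xrep-4 (0.06) and 0.20 for mdt-15 (0.10), a subunit of the Mediator complex. None of the regulators had an unadjusted p under 0.05 in either form.

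Among 5 other proteins of the glutathione S-transferase fold or the kappa class, gstk-1 had 0.24, gstk-2 0.06, exl-1 0.13 and the elongation factor gene eef-1G 0.06. The chloride channel-related gene exc-4 had -0.32 (unadjusted p 0.0682) with groups that did not overlap, and -0.19 (unadjusted p 0.0418) without DMSO replicate 1.

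None of the markers of the worms' tissues passed, as 0% of all 22548 probe sets did, while some lists lay mostly on 1 side. For comparison, the median over all genes at or above the median signal was 0.18, and 0 without DMSO replicate 1. Of all 17118 genes, 8943 were positive, and 7084 without DMSO replicate 1. All 6 intestine markers had positive differences, from 0.03 to 0.34 with a median of 0.10, and 5 of 6 and 0.04 without DMSO replicate 1. Their median signal was 11.90 to 12.11 on the albendazole arrays and 11.55 to 11.88 on the DMSO arrays, and its part in the differences of single members was not tested. The 4 neuron markers had a median of 0.25 with 4 of 4 positive, from 0.00 for rab-3 to 0.53 for unc-64. Without that array the median was 0.10 with 4 of 4, from 0.01 for unc-119 to 0.23 for unc-64. The median signal of the neuron markers was 9.40 to 9.48 with albendazole and 9.15 to 9.32 with DMSO. The pharynx markers had 0.27 with 3 of 3 positive, from 0.01 to 0.34, and 0.02 with 2 of 3 without that array. The medians were 0.05 and -0.07 for muscle and 0.11 and 0.13 for epidermis. The 5 germline and oocyte markers had a median of 0.06, and -0.24 without that array, where 0 of 5 were positive. The muscle, neuron, epidermis and pharynx markers lay at percentile 63.9 of gene signals or above, and the 4 sperm markers between percentiles 3 and 49.7.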

How the data were processed

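The deposited values are log2 signals per probe set, made by the authors with RMA from 1 array per sample and 1 µg of total RNA, per the labels, which also name limma, without versions or order of steps. The log2 scale is inferred from values between 4.887 and 14.895 and is not stated; array medians lie within 0.071. No detection calls or raw scans were used, and precision is limited by having 3 arrays a group.

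Of 22625 probe sets, 77 controls were left out. Of the 22548 tested, 20766 list 1 gene in the platform annotation, 887 several and 895 none; of the gene numbers, 65 were not found in the RefSeq table and 0 symbols changed. Groups were compared with limma 3.58.1 in R 4.3.3 (group as the only term, eBayes, two-sided, Benjamini-Hochberg over all probe sets, adjusted p under 0.05), and differences are albendazole minus DMSO. The fit was tested on simulated data. P values measure the spread between cultures as labelled. The annotation's build is not stated, so no positions are given.

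The members and gene lists were chosen with earlier results of these data known. Named by sample were gst-5, gst-4, gst-29 and the 5 smallest p values in each direction; by group, the 5 brightest and dimmest members and those whose groups do not overlap; of each list, up to 4 smallest p values, with skn-1, wdr-23 and gcs-1. Outside this rule, gst-12, gst-16, gst-21, gst-24 and gst-38 were described after their values were seen. Alternatives were the scaling, a filter on dim probe sets, array weights, the variance model, a block, thresholds, each array left out, replicate 1 of both groups left out, and the mean of a gene's probe sets.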

Additional observations from a re-analysis of the deposited data

How the results depend on the processing

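The count of 0 members past the threshold became 2 with array weights, where gst-5 had 1.72 and gst-29 had -0.47, and stayed 0 in the other settings, as it did for the other glutathione genes in all of them. Over all probe sets 28 passed with array weights, 5 with gene-by-gene weights and 2 without DMSO replicate 1 and with an intensity trend and robust settings. The 6 members at an unadjusted p under 0.05 became 15 with default weights (8 higher, 7 lower) and 12 with gene-by-gene weights (6 and 6), where 20.1% and 9.65% of all genes were below it, against 1.82% without weights, and 3 to 10 with 1 array left out: 10 without DMSO replicate 1, 3 without ABZ replicate 1 or DMSO replicate 3. The 8 members whose groups do not overlap became 5 under quantile normalization, 9 to 15 with 1 array left out, 15 without DMSO replicate 1 under the trend and robust settings, and 16 without replicate 1 of both groups. Fewer arrays make such separation easier by construction: over all genes it was 17.4% with 6 arrays, 22.8% to 33.7% with 1 left out and 33.4% without replicate 1 of both groups. The median difference of 0.02 was 0.10 when the dimmest probe sets were filtered out, which leaves 33 members, and lay between -0.02 and 0.10 with 1 array left out, with the highest value without DMSO replicate 2.

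Over 17 settings the difference of gst-5 lay between 1.56 and 1.96, that of gst-4 between -0.73 and -0.27 and that of gst-29 between -0.48 and -0.15. The sign was kept in every setting by 22 of the 43 members and changed in at least 1 by 21, none of which passed. With the replicate number as a block the difference of gst-5 stayed at 1.78 (adjusted p 0.645) and 0 members passed. Deviations of same-numbered arrays correlated at 0.125, 0.264 and 0.066. Each array correlated best with its own number, though ABZ replicate 2 with DMSO replicate 3 gave 0.062, beside 0.066. The labels state no pairing, and whether the arrays were paired was not tested.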
